A study of Mus musculus with 6 samples.

Results

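Interferon-stimulated genes were examined in lung tissue from ob/ob mice, which lack functional leptin, after leptin or saline. The list held 39 genes, of which 36 had at least 1 probe set carrying their symbol alone, 53 probe sets in all, and 33 were bright enough on the arrays to be tested, among 9365 tested genes. Ifi44 and Xaf1 matched no probe set, Isg15 shared its probe set with another symbol and is not given a value, and Zbp1, Mx1 and Mx2 lay below the filter on dim signals. All animals were females of strain B6.V-Lepob/J, about 1 month old, so the treated and the control animals alike carried the leptin mutation. Total lung RNA was hybridised to Affymetrix Mouse 430A arrays, with 1 animal per array and 3 animals in each treatment group. The sources used here do not give the dose, route or duration of treatment, and no lean group was analysed.

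Interferons are secreted proteins that warn cells of viral infection. Type I interferons signal through a receptor of Ifnar1 and Ifnar2 and the kinases Jak1 and Tyk2 to a complex that includes Stat2 and Irf9 and binds a DNA element, the interferon-stimulated response element (ISRE), in front of its target genes. Interferon gamma signals through Ifngr1 and Ifngr2 and acts on another element, the gamma-activated site (GAS), and it is the stronger inducer of Irf1 and of the guanylate-binding and immunity-related GTPases. Many targets are also expressed at a low level without infection, in leukocytes as in epithelium and endothelium. A whole-lung array cannot tell fewer cells of a type from less RNA per cell.

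Saline replicate 1 differed from the rest in overall profile. Its log2 values correlated with those of the other 5 arrays at 0.438 to 0.447, whereas those 5 gave 0.973 to 0.978 among themselves, and its control probe sets read a median 14.1-fold above their level elsewhere. The label gives a female, but 5 of 6 probe sets of the Y-linked genes Uty, Eif2s3y and Kdm5d read higher there than on any other array. A Uty probe set was at 1108.1 against 12.7 to 67.3, whereas the remaining Kdm5d probe set was lowest there, at 50.3 against 76.0 to 137.6. On this array 40% of all tested genes also read above the other 5, and its 10th percentile of intensity was 57.0, against 16.3 to 19.2 elsewhere. Sftpc, the surfactant protein that defines alveolar type II cells, was at 4087 on this array, against 23964 to 29732 elsewhere. The comparison was therefore made on 5 arrays, with saline replicate 1 kept apart, and then with all 6. Values are probe set intensities on a linear scale, and differences are log2 differences, leptin minus saline, with the standard error (SE) of the limma fit. The p-values measure only the spread between these arrays.

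On 5 arrays most of the listed genes read higher with leptin, by small amounts. The difference was above 0 for 28 of the 33 tested genes, against 48.3% of all tested genes, with a median of 0.15 (interquartile range 0.03 to 0.32) against -0.01 over all genes. It ranged from -0.74 for Rsad2 to 0.95 for Rtp4, and 12 of the 33 lay within 0.1 of 0. No listed gene passed the limma adjusted threshold of 0.05, as 0.0534% of all tested genes did, so no gene is described here as changed. At an unadjusted p under 0.05 there were 7 genes, against 4.28% of all genes: 6 were higher (Rtp4, Ifi27l2a, Gbp2, Ifi47, Irf9 and Samhd1) and 1 was lower (Rsad2), against 2.26% and 2.02% of all genes. Every leptin array lay above both saline arrays for 11 of the 33 genes, or 33.3%, against 9.5% of all genes, and below both for Rsad2 alone, against 10.4% of all genes. The rule stated by the series was read here as a 1.5-fold difference with an unadjusted p below 0.05, computed gene by gene without limma. That fold was also required in 6 or more of 9 leptin-saline pairs (taken as 4 of 6 on 5 arrays). On 5 arrays the rule was met by Rtp4, Ifi27l2a, Gbp2 and Rsad2, against 0.406% of all genes. The list was chosen with results of these data known, so these counts describe the genes and are not independent support for a direction.

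**Figure D1:**
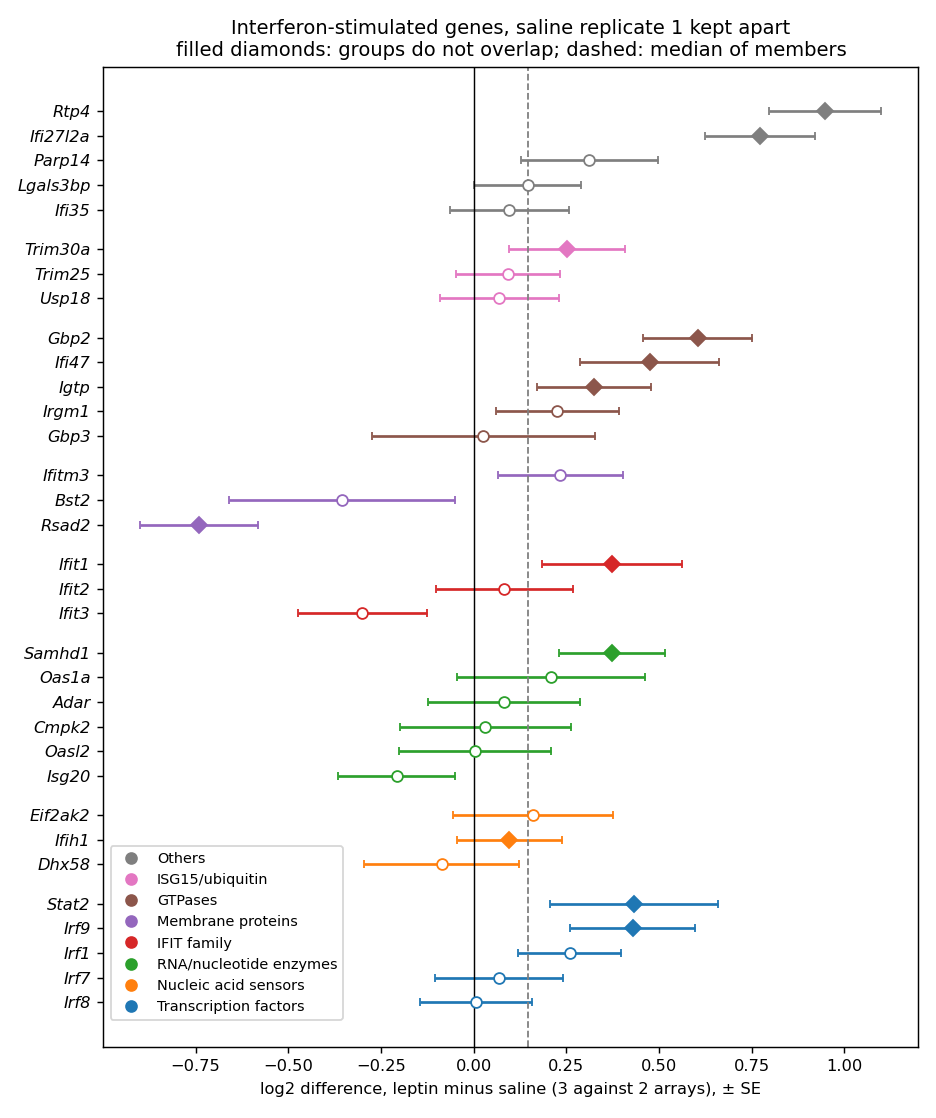
Log2 difference, leptin minus saline, with its SE for the 33 tested genes on 5 arrays (3 leptin, 2 saline), grouped by the role of the protein; filled diamonds mark genes whose groups do not overlap, and the dashed line is the median of 0.15. Rtp4 and Ifi27l2a lie farthest to the right, at 0.95 and 0.77, and Rsad2 farthest to the left, at -0.74.

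The largest difference was that of Rtp4, a receptor transporter protein induced by type I interferon. Leptin arrays gave 708.6, 604.7 and 696.4, and saline replicates 2 and 3 gave 337.5 and 333.8. The groups were far apart, at 670 ± 56.8 (SD, n = 3) against 336 ± 2.62 (SD, n = 2), and the log2 difference was 0.95 ± 0.15 (SE), with a limma adjusted p of 0.0956. Saline replicate 1 read 805.9, above every leptin array. With it the difference was 0.55 ± 0.39 (limma adjusted p = 0.715), so the size of the Rtp4 difference depends on keeping that array apart. A second Rtp4 probe set was at background, between 3.6 and 19.9 on the 5 arrays.

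Ifi27l2a, a small interferon-induced membrane protein, showed the next largest difference. It read 636.5, 659.8 and 734.4 with leptin and 396.9 and 376.1 with saline. All leptin arrays lay above both saline arrays and also above saline replicate 1, at 448.5. The log2 difference was 0.77 ± 0.15 on 5 arrays (limma adjusted p = 0.205) and 0.70 ± 0.23 on 6 (0.715), a ratio of means of 1.75 on 5 arrays. Of the other genes in this mixed group, Parp14, an ADP-ribosyltransferase, was at 0.31 ± 0.19, Lgals3bp, a secreted glycoprotein, at 0.15 ± 0.14 and Ifi35 at 0.10 ± 0.16, each with overlapping groups.

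**Figure D2:**
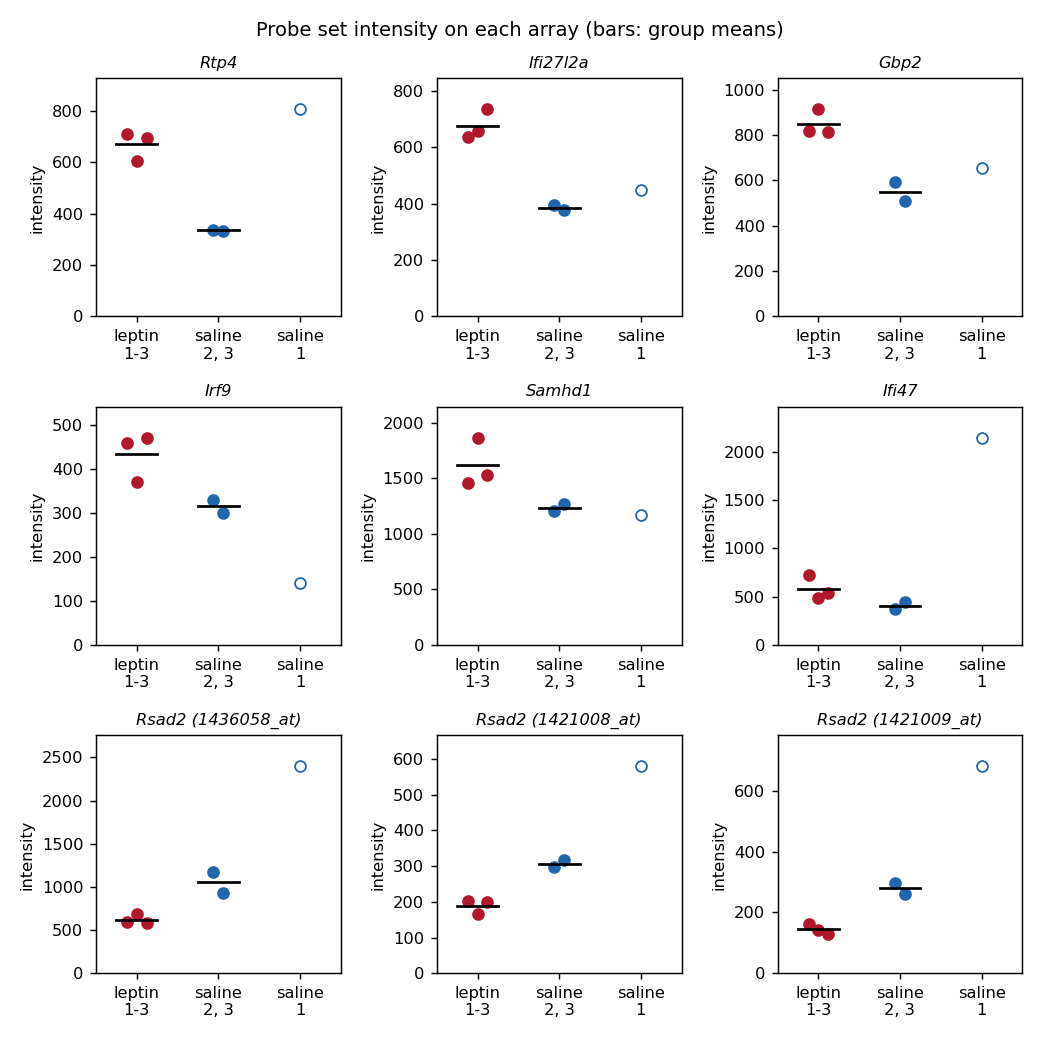
Probe set intensity on each array (linear scale from 0) for Rtp4, Ifi27l2a, Gbp2, Irf9, Samhd1, Ifi47 and the 3 Rsad2 probe sets; red points are leptin arrays, filled blue points saline replicates 2 and 3, the open point saline replicate 1, and bars are group means. For Rsad2 every leptin point lies below every saline point, whereas saline replicate 1 lies on the leptin side or beyond for Rtp4 (805.9) and Ifi47 (2145).

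The interferon-induced GTPases, which attack the vacuoles of intracellular pathogens, all lay above 0 (5 of 5 genes, median 0.32). Gbp2, a guanylate-binding protein, read 815.2, 912.1 and 810.9 with leptin against 592.2 and 507.4 with saline, and 655.5 on saline replicate 1. The leptin arrays lay above all 3 saline arrays. The log2 difference was 0.60 ± 0.15 on 5 arrays (limma adjusted p = 0.526) and 0.52 ± 0.23 on 6. A second, dimmer Gbp2 probe set, of a type that can share probes with other transcripts, was also free of overlap, at 378.5, 409.4 and 468.8 against 289.9 and 325.7, with a log2 difference of 0.42 ± 0.17. Ifi47, an immunity-related GTPase, read 721.4, 487.9 and 535.7 with leptin against 375.9 and 440.2 with saline, with a log2 difference of 0.47 ± 0.19 (adjusted p = 1.00). Leptin replicate 1 was the highest of these by a wide gap. Igtp, a related GTPase that acts at parasite vacuoles, read 744.8, 691.8 and 882.6 against 630.7 and 589.4, with a log2 difference of 0.32 ± 0.15. Irgm1, a regulator of that family, was at 0.23 ± 0.17 and Gbp3 at 0.03 ± 0.30, both with overlapping groups. On saline replicate 1 the 3 immunity-related GTPases read above every other array (Ifi47 at 2145, Igtp at 1520, Irgm1 at 1333), and with it their log2 differences turned to -0.30, -0.10 and -0.24.

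The transcription factors also lay above 0 on 5 arrays (5 of 5 genes, median 0.26). Irf9, the DNA-binding subunit of the type I interferon complex, read 460.4, 371.2 and 471.1 with leptin and 329.8 and 301.1 with saline. The groups did not overlap, and saline replicate 1 was lower still, at 141.1. The log2 difference was 0.43 ± 0.17 on 5 arrays (limma adjusted p = 1.00) and 0.78 ± 0.37 on 6. Stat2, its partner, read 351.9, 235.7 and 214.1 against 174.1 and 202.9, with a log2 difference of 0.43 ± 0.23. Saline replicate 1 read 438.3, above every leptin array, and with it Stat2 was at 0.05 ± 0.42. Among the 5 arrays leptin replicate 1 stood above the rest, while leptin replicate 3 lay just above the higher saline array. A second Stat2 probe set was at 0.21 ± 0.33 with overlap. Irf1, a factor induced by interferon gamma, read 1818, 1767 and 1549 against 1552 and 1305. Its lowest leptin array lay just under the higher saline array, and its log2 difference was 0.26 ± 0.14. Irf7, which amplifies type I interferon production, was at 0.07 ± 0.17. Irf8, a factor of monocyte, dendritic and B cell development, was at 0.01 ± 0.15 on its brighter probe set and at -0.25 ± 0.15 on the other, where every leptin array (353.5 to 370.5) lay below both saline arrays (431.6 and 442.6).

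Sensors of foreign nucleic acid differed little. Ifih1, the cytosolic receptor for long double-stranded RNA also called MDA5, read 707.4, 804.0 and 709.8 with leptin and 705.4 and 675.1 with saline. The groups did not overlap, but the closest arrays were only a few units apart, and the log2 difference was 0.10 ± 0.14. Eif2ak2, the RNA-activated kinase PKR that halts translation, was at 0.16 ± 0.22 on its brighter probe set and at -0.11 ± 0.26 on the other. Dhx58, a helicase that tunes the RNA receptors, was at -0.09 ± 0.21. Zbp1, a sensor that triggers necroptosis, was dim on the 5 arrays, at 20.8 to 73.0 with leptin and 85.9 and 122.1 with saline for one probe set, and its second probe set overlapped. On saline replicate 1 the first of these read 1086, and Zbp1 passed the filter on 6 arrays only through that value, so its log2 difference there, -1.92 ± 0.93, rests on that array.

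Enzymes that act on RNA and nucleotides were above 0 in 5 of 6 genes, with a median of 0.06. Samhd1, which depletes the nucleotides that viruses need for DNA synthesis, was the furthest from 0 and also the least settled. On its brightest probe set the leptin arrays were at 1460, 1862 and 1525 and the saline arrays at 1205 and 1267, a log2 difference of 0.37 ± 0.14 without overlap. Its other 3 tested probe sets were at -0.05, -0.63 and 0.00, all with overlap, so the probe sets of Samhd1 did not share a direction. Oas1a, an oligoadenylate synthetase that switches on RNA decay, was at 0.21 ± 0.25, and leptin replicate 1 alone carried this, at 682.7 against 342.9 to 384.5 on the other 4 arrays. Adar, which edits adenosine in double-stranded RNA, was at 0.08 ± 0.20, Cmpk2, a mitochondrial nucleotide kinase, at 0.03 ± 0.23 and Oasl2 at 0.00 ± 0.20. Isg20, an RNA exonuclease, was at -0.21 ± 0.16.

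The IFIT proteins, which bind foreign RNA ends and block its translation, did not share a direction. Ifit1 read 553.3, 362.1 and 475.6 with leptin and 345.8 and 350.3 with saline, and 293.8 on saline replicate 1. The groups did not overlap, although leptin replicate 2 lay close to saline, and the log2 difference was 0.37 ± 0.19 on 5 arrays and 0.45 ± 0.26 on 6. Ifit3 read 860.3, 633.5 and 794.1 against 828.4 and 1060. That is the opposite direction, at -0.30 ± 0.17, with leptin replicate 1 inside the saline range. Ifit2, the neighbour of Ifit3 in the genome, was at 0.08 ± 0.19.

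Genes of the ISG15 modifier system and the TRIM ubiquitin ligases were close to 0, with a median of 0.09. Usp18, the protease that removes ISG15 and damps receptor signalling, was at 0.07 ± 0.16. Trim25, a ligase that activates RNA sensing, was at 0.09 ± 0.14 on its brightest probe set. Its other probe sets were at 0.13 ± 0.13, without overlap, and at 0.23 ± 0.21, with overlap. The former read 82.8 on saline replicate 1, and its 6-array difference was 1.18 ± 0.87. Trim30a, a mouse TRIM protein, read 650.9, 613.3 and 767.6 with leptin and 601.8 and 526.6 with saline. The gap between the groups was narrow, with a log2 difference of 0.25 ± 0.16, and its second probe set overlapped, at 0.14 ± 0.17. On saline replicate 1 the brighter probe set read 2311 and the dimmer one 112.1, and the 6-array differences of the pair were -0.41 and 0.58.

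Rsad2, which encodes viperin, an antiviral enzyme at the endoplasmic reticulum and lipid droplets, had the lowest difference of the 33 genes, of which Bst2, Ifit3, Isg20 and Dhx58 were also below 0. On its brightest probe set the leptin arrays were at 590.1, 688.8 and 581.1, and the saline arrays at 1178 and 931.5. Every leptin array lay below both saline arrays, at 620 ± 59.8 (SD, n = 3) against 1055 ± 175 (SD, n = 2), so that saline was 1.70-fold higher. The log2 difference was -0.74 ± 0.16 (limma adjusted p = 0.327). The second probe set read 201.9, 165.1 and 199.9 against 296.4 and 318.4, at -0.65 ± 0.18 (adjusted p = 0.834), and the third read 161.8, 142.7 and 128.7 against 297.9 and 260.3, at -0.86 ± 0.20 (0.430). All 3 probe sets were thus lower on every leptin array, though they measure the same RNA samples. On saline replicate 1 they read 2395, 579.2 and 679.4, higher than on any other array, and the 6-array differences were -1.13, -0.94 and -1.26. Cmpk2, the gene next to Rsad2 in the genome, was near 0 on 5 arrays. Cmpk2 gave 187.8, 161.7 and 165.5 with leptin on its brighter probe set, against 208.9 and 133.1 with saline, and its other probe set was at 0.17 ± 0.26. On saline replicate 1 the pair read 415.6 and 716.4, above every other array, and the 6-array differences were -0.37 and -0.59, in the direction of Rsad2.

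Of the other membrane proteins, Ifitm3, which blocks fusion of virus particles with endosomes, was bright throughout, at 6005, 6493 and 8804 with leptin and 5272 and 6723 with saline. Its groups overlapped, at 0.23 ± 0.17. Bst2, or tetherin, which holds budding virus at the cell surface, read 315.6, 443.6 and 167.8 against 379.4 and 370.3. The leptin arrays spread to either side of saline, with a log2 difference of -0.36 ± 0.30. The dynamin-like GTPases Mx1 and Mx2 were dim on the 5 arrays. Mx1 read 60.2, 56.7 and 50.1 with leptin against 11.6 and 32.3 with saline, and Mx2 between 19.6 and 34.6, near the 10th percentile of intensity on those arrays (16.3 to 19.2). On saline replicate 1 Mx1 read 300.3 and Mx2 94.8, each above every other array.

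The promoters of Gbp2 and Rsad2 are shown because these genes differed in opposite directions and both carry an ISRE match. The sequences are RefSeq's (build GRCm38.p6), the 250 bases before the annotated start, 5′ to 3′ on the gene's strand, with the match in capitals. Gbp2 is on the plus strand at chr3:142620413-142620662, and Rsad2 on the minus strand at chr12:26456453-26456702. The match lies 59 to 50 bases before the start of Gbp2 and 120 to 111 bases before that of Rsad2.
Gbp2: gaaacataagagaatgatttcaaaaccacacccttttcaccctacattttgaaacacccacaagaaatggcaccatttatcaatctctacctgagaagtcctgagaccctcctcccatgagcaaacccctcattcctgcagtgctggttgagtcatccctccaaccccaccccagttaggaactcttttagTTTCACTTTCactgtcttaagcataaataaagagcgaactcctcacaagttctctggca
Rsad2: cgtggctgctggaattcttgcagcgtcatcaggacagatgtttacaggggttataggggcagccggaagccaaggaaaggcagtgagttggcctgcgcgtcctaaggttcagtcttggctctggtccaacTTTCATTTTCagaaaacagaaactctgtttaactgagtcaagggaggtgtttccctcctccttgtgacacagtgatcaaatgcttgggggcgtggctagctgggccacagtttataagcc
The motif searched was GAAA, any 2 bases and GAAA again, on both strands, and matches may overlap each other. It was found in front of 12 of the 31 listed genes with a promoter entry (38.7%), against 936 of 27025 genes in the table (3.46%). A match is a description of these letters and not evidence of a bound site.

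Among the 11 genes that read higher without overlap, 9 had a promoter entry and 5 held a match: Gbp2, Stat2, Ifit1, Igtp and Trim30a. The matches of the other 4 are given with 10 bases on either side, the match in capitals, to show how near they are to those of Gbp2 and Rsad2. They lie at chr10:128270266-128270295 (plus strand), chr19:34640775-34640804 (plus), chr11:58199512-58199541 (plus) and chr7:104465210-104465239 (minus).
Stat2: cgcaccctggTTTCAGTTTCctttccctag
Ifit1: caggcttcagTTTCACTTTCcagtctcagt
Igtp: tctaggaactGAAACTGAAAgctgttcggg
Trim30a: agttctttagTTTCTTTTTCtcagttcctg
Ifit1, Ifit3, Gbp3, Oas1a, Bst2 and Irgm1 each held a second match, and Isg15, which is given no value here, held several. The Ifit1 match shown has the same 10 letters as that of Gbp2. Matches were also found for Bst2 and Ifit3, which were below 0 with overlap, and for Gbp3, Irgm1 and Oas1a, so genes with a match lay on either side of 0. The GAS motif, TTCNNNGAA, which reads alike on both strands, was found in front of 9 of the 31 genes (29%) against 8.13% of all genes, and not in that of Rsad2. It can overlap an ISRE match, as in Bst2.

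The spread among leptin arrays was uneven. Leptin replicate 1 was the highest of the 5 arrays for 14 of the 33 genes, leptin replicates 2 and 3 for 5 and 7, and saline replicates 2 and 3 for 4 and 3. The matching shares over all genes were not computed. On leptin replicate 1, 25 of the 33 genes lay above their own mean over the 5 arrays, against 54.1% of all genes. Relative to each gene's mean over the 5 arrays, the median of the listed genes was 0.14 on leptin replicate 1, -0.02 and -0.00 on the other 2 leptin arrays and -0.09 and -0.10 on the saline arrays, on the log2 scale. The same median over all tested genes lay between -0.03 and 0.02 on every array. Rtp4, Ifi27l2a and Gbp2 were above both saline arrays on each leptin array by a clear margin, whereas Oas1a, Adar and Stat2 were highest on leptin replicate 1 and lower on the other leptin arrays. Without leptin replicate 1 the median difference was 0.12, with 24 of 33 genes above 0.

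**Figure D3:**
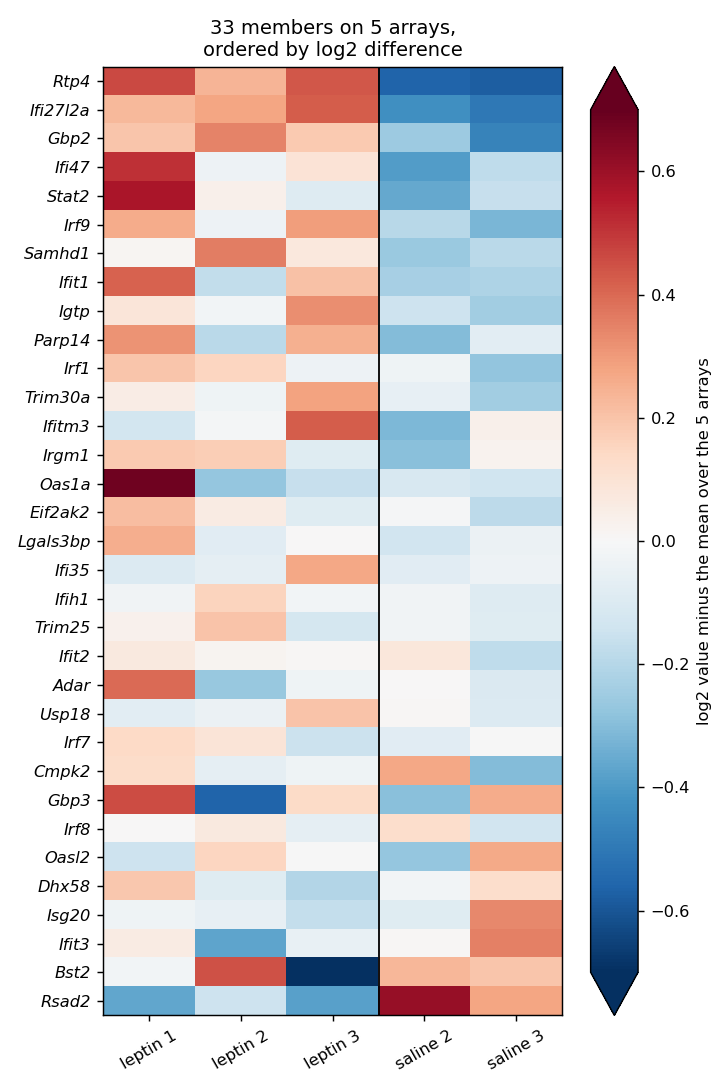
Log2 value of each of the 33 tested genes on each of 5 arrays, relative to the gene's mean over those arrays (red above, blue below; colours are cut at 0.7), ordered by log2 difference. Rtp4, Ifi27l2a and Gbp2 at the top are red on the 3 leptin arrays and blue on both saline arrays, and Rsad2 at the bottom is reversed. The middle rows are mixed: Oas1a and Adar are highest on leptin replicate 1, Trim25 on leptin replicate 2, and Trim30a and Ifitm3 on leptin replicate 3.

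With all 6 arrays, as the study was designed, no listed gene passed the limma adjusted threshold (0% of all genes did), and the smallest adjusted p was 0.715. At an unadjusted p under 0.05 there were 2 genes, against 0.35% of all genes: Ifi27l2a was higher and Rsad2 lower, against 0.18% and 0.17% of all genes. Of 34 tested genes 20 were above 0, against 51% of all genes, with a median of 0.12 against 0.02 over all genes, so the number above 0 was near the background. The median SE was 0.40, against 0.17 on 5 arrays. Groups did not overlap for 6 higher genes (Ifi27l2a, Gbp2, Irf9, Ifit1, Samhd1 and Ifih1), against 4.62% of all genes. Among lower genes this held for Rsad2, against 4.25% of all genes. The dim Zbp1 also read lower without overlap but is not counted, because it passed the filter only through its value on saline replicate 1. The rule stated by the series was met by Ifi27l2a, against 0.149% of all genes.

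Saline replicate 1 split the list. It read above all other 5 arrays for 14 of the 33 genes (42.4%, against 40% of all tested genes), below them for 14 (42.4%, against 49.1%) and within their range for 5. The sign of the difference changed between 5 and 6 arrays for 12 of the 33 genes, among them Ifi47, Igtp, Irgm1, Trim30a, Usp18 and Irf7, which turned lower, and Isg20 and Bst2, which turned higher. The shares above and below the other 5 arrays were near those of all genes. The share of all genes whose sign changed was not computed. Gbp2, Ifi27l2a, Irf8, Parp14 and Lgals3bp, the genes within range, kept their direction.

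**Figure D4:**
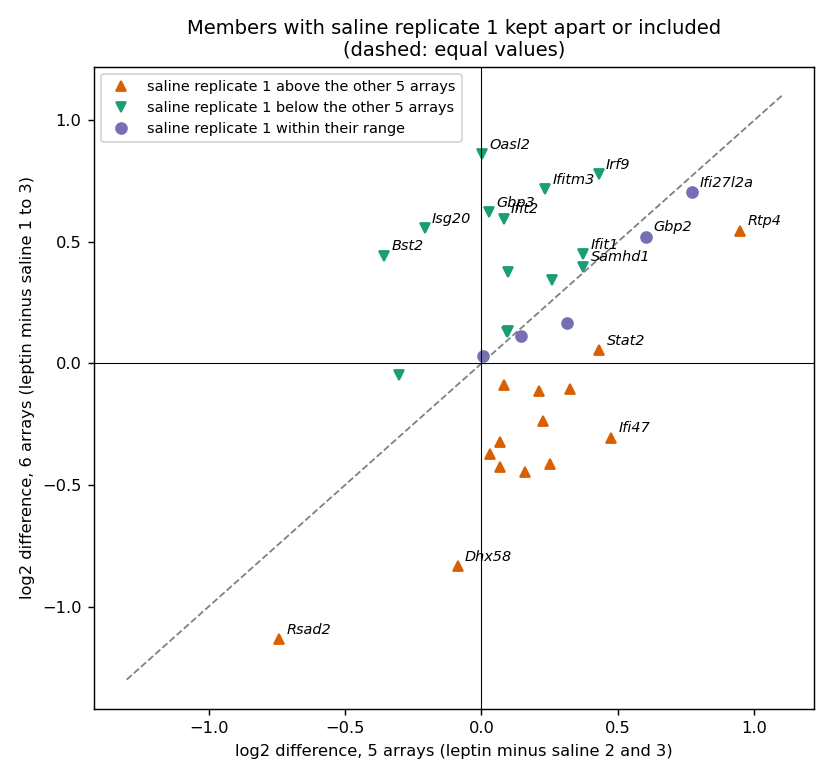
Log2 difference of the 33 genes on 5 arrays (horizontal) and on all 6 (vertical); the marker shows whether saline replicate 1 read above, below or within the other 5 arrays, and the dashed line marks equal values. The axes share 5 arrays. Genes above on saline replicate 1 lie under the line, such as Ifi47 (0.47 and -0.30), and genes below on it lie over the line, such as Bst2 (-0.36 and 0.44).

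Genes upstream of the interferon targets were examined from a list of ligands, receptors, inducers and inhibitors. None passed the limma adjusted threshold on 5 arrays. Of 12 interferon genes listed, 10 had a probe set and only Ifna2 and Ifnz passed the filter, at -0.04 ± 0.23 and 0.12 ± 0.24, and the gamma and beta interferon probe sets lay below it. The 8 receptor and kinase genes had a median of 0.04, 5 of them above 0. Ifnar1 read 447.0, 448.3 and 417.5 with leptin against 381.5 and 365.7 with saline, a log2 difference of 0.22 ± 0.15. Ifngr1 was at -0.18 ± 0.15, with leptin arrays (1252 to 1588) below saline (1601 and 1718). With saline replicate 1, at 76.4 for Ifnar1 and 837.4 for Ifngr1, the differences were 0.88 and 0.14, so that of Ifngr1 turned. Among 9 tested genes that induce interferon, Sting1, the adaptor for cytosolic DNA, read 331.6, 384.4 and 259.0 against 113.7 and 221.2, at 0.92 ± 0.26 (adjusted p = 0.834), and Mavs, the adaptor for the RNA receptors, was at 0.45 ± 0.17 (1.00). These groups did not overlap. With saline replicate 1, at 846.8, Sting1 was at 0.16, and Mavs was at 0.66. Of 7 inhibitors Socs3, which is also a target of the leptin receptor, was at 0.76 ± 0.32, with overlapping groups at 590.3, 391.4 and 253.1 against 302.0 and 161.1. With saline replicate 1, at 1797, Socs3 turned to -0.21 ± 0.86.

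A second list of 56 further targets gave 32 tested genes, of which 23 were above 0, against 48.3% of all genes. Their median was 0.11, and again none passed the adjusted threshold. Leptin arrays lay above both saline arrays for 12 and below both for 2, against 9.5% and 10.4% of all genes. The 4 at an unadjusted p under 0.05 were all higher, against 2.26% of all genes that were. Psmb9, an immunoproteasome subunit, was at 0.77 ± 0.18 (limma adjusted p = 0.410), Cd274, the inhibitory ligand PD-L1, at 0.95 ± 0.28, B2m, the light chain of MHC class I, at 0.44 ± 0.11 and Gbp7 at 0.49 ± 0.18. B2m read 12152, 10461 and 12650 with leptin against 8961 and 8352 with saline, so the groups did not overlap, and saline replicate 1 was far below both, at 692.4. Mov10 and Shisa5 were the 2 lower genes, at -0.46 ± 0.25 and -0.19 ± 0.12. With all 6 arrays the list's median was 0.59, with 23 of 32 above 0, against 0.02 and 51% over all genes. B2m was then at 1.64 ± 1.03, Psmb9 at 1.24 ± 0.45, Gbp7 at 1.22 ± 0.63 and Cd274 at 0.79 ± 0.36. Mov10 was at -1.27 ± 0.70, and Shisa5 turned to 0.10 ± 0.42. Saline replicate 1 read far below the others for several bright genes of the list, such as H2-D1 at 129.9 against 9436 to 12227. Alveolar type I, type II and endothelial markers had 6-array medians of 1.22, 1.02 and 0.71, so a higher 6-array median was not particular to these targets.

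Markers of leukocytes, which express many of these targets, mostly read higher with leptin on 5 arrays too. B cell markers were above 0 in 6 of 7 tested genes (median 0.44), without overlap for 4 (9.5% of all genes were higher without overlap), and their summed intensity was 1696 to 2269 with leptin and 1448 and 1653 with saline. T and natural killer cell markers were above 0 in 5 of 6 (median 0.21), with sums of 860 to 1071 against 640 and 876, and conventional dendritic cell markers in 5 of 5 (median 0.21), with sums of 1613 to 2003 against 1427 and 1655. Neutrophil markers were above 0 in 6 of 6 with widely spread sums, 3010 to 6506 against 2574 and 5016, macrophage markers in 5 of 5 (7318 to 8269 against 6278 and 7923), and monocyte markers in 3 of 5. Plasmacytoid dendritic cell markers, of a cell type known for type I interferon, were above 0 in 4 of 5, with sums of 3650 to 3724 against 3659 and 3967. These sums were mostly Tcf4 and Cox6a2, at 1308 to 2001 on the 5 arrays, while Ly6d, Tlr9 and Spib read 89.0 to 230.3. No leukocyte marker passed the adjusted threshold, and no marker was at 0 on any array. Erythroid markers were lower in 5 of 5 (4649 to 6080 against 11015 and 13627), and Alas2, Bpgm and Slc25a37 fell past the threshold (limma adjusted p = 0.0496 for each). On saline replicate 1 the erythroid sum was 706.2, below every other array. With all 6 arrays none of the 3 passed the threshold, 3 of 5 erythroid markers were lower, and Alas2 and Slc25a37 turned to 1.12 and 0.27. Epithelial sums overlapped for alveolar type II (69104 to 78756 against 77955 and 78876) and type I (39619 to 46581 against 45518 and 45867). Club cell sums were lower on every leptin array, at 57448 to 63789 against 64029 and 64840. Of these markers 2 of 5, 2 of 5 and 0 of 3 were above 0 (medians -0.07, -0.07 and -0.08). Lower without overlap were 1, 2 and 2, against 10.4% of all genes. Endothelial sums were 22619 to 25378 against 23164 and 23374, with 5 of 7 above 0 (median 0.07) and 3 higher without overlap. With all 6 arrays the medians of these 4 lists were 1.02, 1.22, 0.15 and 0.71. With all 6 arrays fewer leukocyte markers were above 0: 4 of 7 for B cells (median 0.18), 2 of 7 for T and natural killer cells (-0.33), 3 of 5 for conventional dendritic cells, 2 of 5 for plasmacytoid dendritic cells (-0.04), 2 of 5 for monocytes (-0.28), 4 of 6 for neutrophils (0.27) and 4 of 5 for macrophages (0.26). The part of cell composition in the interferon-stimulated differences was not tested.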

How the data were processed

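Each label gives 1 female ob/ob mouse and 1 lung sample per array. Per the labels' protocols, RNA was amplified and labelled by a small-sample procedure. The authors deposited 1 intensity per probe set and array on a linear scale, and their summarisation software is not given in the sources used here. The trimmed mean without the lowest and highest 2% of probe sets is 500.10 to 500.14 on every array, so the arrays had been scaled alike, which raises all values of an array with little signal. The number of arrays limits the precision.

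Of 22690 probe sets, 64 controls were left out. Genes were named from the platform's annotation where 1 symbol was given (20380 probe sets). Values were taken as log2(intensity + 22.0), with a constant set at the 10th percentile, so changes of dim genes are understated. Probe sets in the lowest 30% by mean log2 value were left out, leaving 15838, fitted with limma 3.58.1 (R 4.3.3; eBayes with a trend, two-sided, Benjamini-Hochberg). For each gene the brightest tested probe set (by mean) was used, and it was the same in both fits for the 33 listed genes tested in both.

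The genes, lists and the rule for the values shown on every array (groups without overlap, unadjusted p under 0.05, and Rtp4, Ifi27l2a and Rsad2) were chosen with earlier results of these data known. In the pathway and further target lists, genes at an unadjusted p under 0.05 or the 2 with the smallest p are named, and marker lists are given by counts and sums; Irf1, Oas1a, Ifit3, Bst2, Ifitm3, Cmpk2, Mx1, Zbp1, Mov10, Shisa5, Alas2, Bpgm and Slc25a37 were added after their values were seen.

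Replicate numbers are not said to pair animals. After subtracting group means, arrays with the same number correlated at 0.103 to 0.144 over tested probe sets (-0.147 to 0.049 for other pairs) and at 0.061 to 0.111 over all probe sets, so a pairing rests on the values alone, and it is used only in an alternative fit.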

Additional observations from a re-analysis of the deposited data

How the results depend on the processing

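On 5 arrays the median difference stayed between 0.099 and 0.22 under every alternative run. The number of listed genes past the adjusted threshold was 1 with the mean of probe sets (Rtp4, limma adjusted p = 0.0262, with fewer features tested), 1 at a threshold of 0.10 and 4 under the series' rule, and 0 otherwise. Genes lower without overlap numbered 2 with the mean of probe sets (Irf8 and Rsad2) and 2 without the filter (Zbp1 and Rsad2). Leaving out each array in turn gave 1 to 4 lower and 11 to 17 higher genes without overlap, against 16% to 26.6% and 15.1% to 23.7% of all genes, with 17 (23.7% of all genes) without saline replicate 2, where 1 saline array is assumed to vary like the others. Samhd1 turned to -0.08 with the mean of probe sets. With the replicate number as a block the median was 0.12, with 24 of 33 genes above 0 and 0 past the threshold; on 5 arrays this block leaves leptin replicate 1 without a partner. On 6 arrays the block left the median at 0.12 with 0 past the threshold, so it changed no call.

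On 6 arrays, array weights (0.0257 for saline replicate 1, 1.64 to 2.98 for the others) gave 1 gene past the threshold (Rtp4, limma adjusted p = 0.0408) and the series' rule gave 1. Array weights turned Igtp, Ifi47 and Trim30a to 0.30, 0.46 and 0.22. A common median, which moved the median of all genes from 0.02 to 0.17, turned Igtp to 0.05, and the mean of probe sets turned Samhd1 to -0.52 and Trim30a to 0.08. Leaving out each array in turn gave -0.18 to 0.43 for Stat2, -0.34 to 0.32 for Igtp, -0.75 to 0.47 for Ifi47 and -0.79 to 0.25 for Trim30a, with the highest value of each without saline replicate 1. The cause of these changes between settings was not tested. Signal over background limits Zbp1, Mx1 and Mx2.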
